A study of Mus musculus with 6 samples.

Results

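The genes described here encode the nuclear subunits of the mitochondrial respiratory chain and the ATP synthase. They were chosen by name: a gene counted if its symbol on the array, its current symbol or a synonym began with Nduf followed by a, b, c, s or v and a digit, with Uqcr, with Cox followed by a digit between 4 and 8, or with Atp5, or was Sdha, Sdhb, Sdhc or Sdhd. The rule found 83 genes of 16390 named on the array. Of these, 80 were counted as subunits and grouped by name: 35 of complex I, 4 of complex II, 8 of complex III, 17 of complex IV and 16 of complex V. This count includes Ndufa4l2, a relative of Ndufa4, and Cox7a2l, which joins complexes III and IV. The other 3 (Emc8, Dmac2 and Dmac2l) carry an older name that fits the letters but are not subunits, and they were set apart. Each gene was read by 1 probe except Ndufs5, which had 2 and was read by the brighter.

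RNA from testis of C57/BL6 mice was measured on 6 arrays with 2 per group. The groups were RNA that came down with an antibody against MVH (DDX4, a helicase found in germ cells), RNA that came down with normal rabbit IgG, and total RNA taken without antibody (labelled WCE). Both precipitates came from a detergent lysate of dispersed cells of 2 testes, cleared by centrifugation. The labels give no age or genotype and do not tie arrays 1 and 2 of a group to different animals. The p-values therefore cover array-to-array spread, which may be technical.

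The respiratory chain passes electrons from NADH (complex I) and succinate (complex II) through ubiquinone to complex III, on by cytochrome c to complex IV, and so to oxygen. The proton gradient built on the way drives the ATP synthase, complex V. Most subunits are encoded in the nucleus, made on cytosolic ribosomes and imported, and spermatogenic cells use testis forms of some of them in place of the forms found elsewhere.

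Of the 80 subunits, 79 were listed on all 6 arrays. Uqcrq, a small subunit of complex III, was listed at 2.3 and 2.4 in the MVH precipitates and at 2.6 in IgG precipitate 1 and was blank on the other 3 arrays, so that it was not tested. Intensities are given scaled to an array median of 30, and belong to a probe, so they do not order transcripts by abundance. Member probes were bright: 67 of 79 lay above the 75th percentile of all probes in total RNA and 54 above the 90th, while 9 stayed under 100 in both total RNA arrays. Among all probes, replicate arrays had an r of 0.986 (MVH), 0.978 (IgG) and 0.988 (total RNA). Of 12 spermatid markers 11 were on the array, and all 11 were listed in total RNA. The deposited median was 20.8 on IgG 2 and 30 on the other 5 arrays, so the scaling moved IgG 2 alone, by 0.53 on the log2 scale.

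The first question was which subunit mRNAs stood higher or lower with the MVH antibody than with IgG. Most stood lower, by a modest amount: the median log2 difference (MVH minus IgG) of the 79 subunits was -0.43, or 1.34-fold lower, against 0.07 for all 21574 probes tested. The difference was negative in 65 subunits and positive in 14. Few passed alone: 5 fell and 0 rose (limma adjusted p under 0.05), where 4.15% of all probes fell and 3.82% rose. The 5 make up 6.33% of the subunits tested, close to the share of all probes. At an unadjusted p under 0.05, 21 subunits (26.6%) were lower and 2 (2.53%) higher, against 12.8% and 12.6% of all probes. Both MVH arrays lay below both IgG arrays in 44 subunits (55.7%), against 23.8% of all probes, and above them in 4 (5.06%), against 29.9%.

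The 5 that fell came from 4 of the complexes. Ndufa4, long listed with complex I and now counted with complex IV, had intensities of 46.1 and 56.6 on the MVH arrays, against 225 and 163 on the IgG arrays and 87.7 and 156 on the total RNA arrays. Both MVH arrays were below all 4 others, and the difference from IgG was 3.74-fold (limma, log2 -1.90 ± 0.35 SE with n = 2 in each group, adjusted p = 0.0222). Ndufa1, a small membrane subunit of complex I, had 1358 and 1532 on the MVH arrays, against 3516 and 3555 on the IgG arrays and 1620 and 2821 on the total RNA arrays. Its arrays within each precipitate were close, its total RNA arrays were not, and it fell by 1.29 ± 0.32 on the log2 scale (adjusted p = 0.0453).

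Sdhc, which with Sdhd anchors complex II in the membrane, had 428 and 460 on the MVH arrays, against 1262 and 841 on the IgG arrays and 676 and 825 on the total RNA arrays. Both MVH arrays were the lowest of the 6, and the fall from IgG was 2.32-fold (log2 -1.22 ± 0.30, adjusted p = 0.0443). Cox8a, the widely expressed form of complex IV subunit VIII, had 762 and 720 on the MVH arrays, against 2388 and 1523 on the IgG arrays and 1213 and 1346 on the total RNA arrays. It too was lowest in both MVH arrays and fell by 1.36 ± 0.30 (2.57-fold, adjusted p = 0.0326). Atp5a1, the alpha subunit of the ATP synthase head, had 1040 and 1434 on the MVH arrays, against 2656 and 2947 on the IgG arrays and 1298 and 1477 on the total RNA arrays. Here the MVH and total RNA arrays overlapped and the IgG arrays stood apart (log2 -1.20 ± 0.28, adjusted p = 0.0396).

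These calls depended on the fit: 0 of the 5 passed with no centring, with only the 4 arrays compared, or without any of MVH 1, MVH 2, IgG 1, total RNA 1 or total RNA 2. Without IgG 2, 3 of them passed (Ndufa4, Sdhc and Cox8a) together with Ndufa11, whereas 8 to 13 subunits passed, the 5 included, under quantile normalization, an offset, a variance trend, the mean of a gene's probes or without the dimmest 25% of probes.

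**Figure D1:**
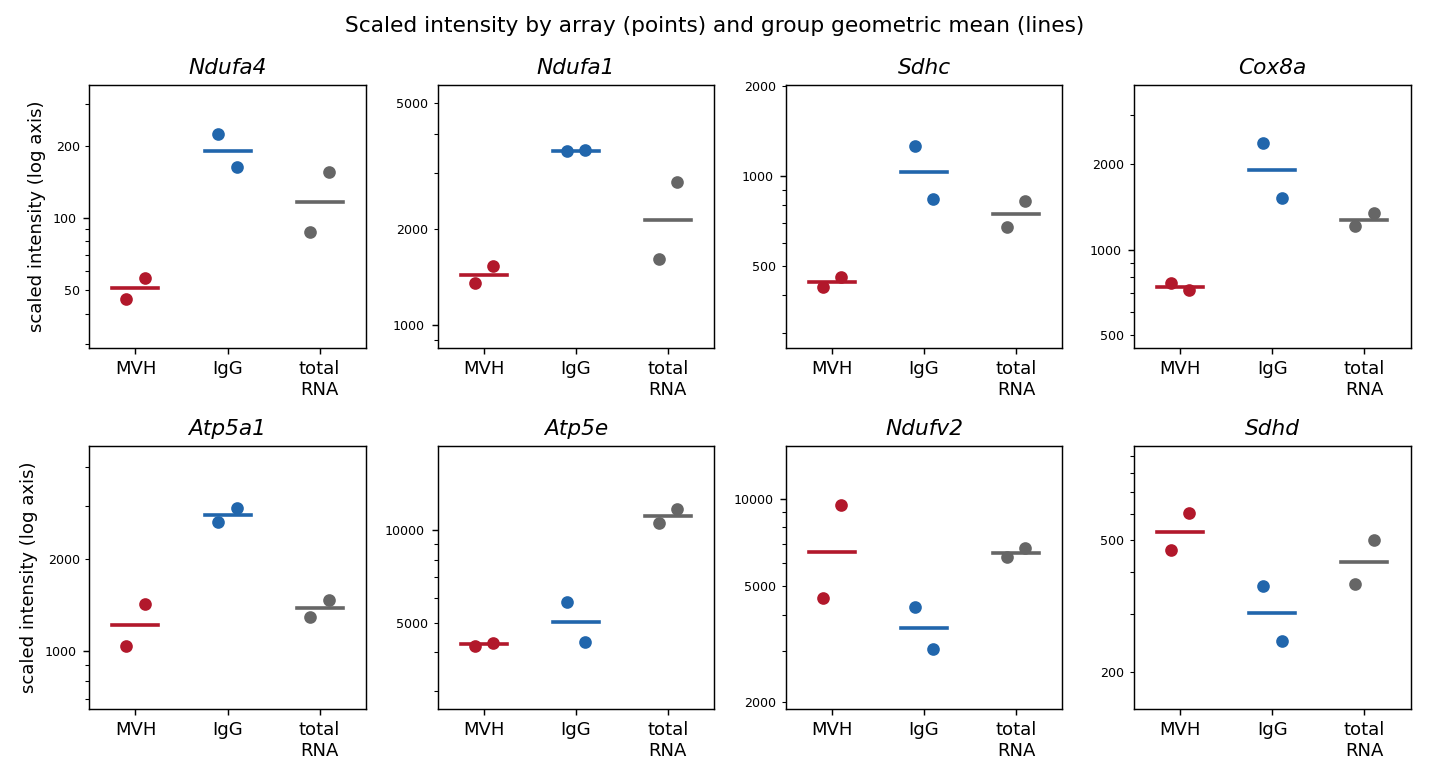
Scaled intensity (log axis) of 8 subunits in the MVH precipitate, the IgG precipitate and total RNA, with a point for each array and a line at the geometric mean of the 2 arrays. Ndufa4, Ndufa1, Sdhc, Cox8a and Atp5a1 are the 5 that fell against IgG, Atp5e is low in both precipitates, and Ndufv2 and Sdhd have the highest MVH minus IgG differences of their complexes.

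Complex I takes electrons from NADH through a flavin and a chain of iron-sulfur clusters held by core subunits, with many accessory subunits around them. Of its 35 genes, 29 were negative against IgG and 6 positive, with a median of -0.45. Ndufa4 and its relative Ndufa4l2 were counted here by name, among the accessory subunits. The median was -0.51 for the 29 accessory and -0.32 for the 6 core subunits measured, and the difference between these medians was not tested. The core subunits spread widely. Ndufs1, which holds iron-sulfur clusters, had 247 and 229 on the MVH arrays, against 468 and 428 on the IgG arrays and 239 and 296 on the total RNA arrays (log2 -0.91 ± 0.27 against IgG, adjusted p = 0.072).

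Ndufv2, an iron-sulfur subunit next to the NADH site, was the most positive subunit of all 79 against IgG. It had 4549 and 9550 on the MVH arrays, against 4246 and 3032 on the IgG arrays and 6304 and 6779 on the total RNA arrays. Its MVH arrays differed by more than its IgG or its total RNA arrays, and the difference of 0.88 ± 0.38 did not pass (adjusted p = 0.19). Ndufv1, which binds NADH and the flavin, differed by 0.33 from IgG and 0.37 from total RNA, with neither past the threshold.

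Among accessory subunits, Ndufa11 had 29.5 and 23.6 on the MVH arrays, against 84.6 and 33.3 on the IgG arrays and 49.3 and 77.6 on the total RNA arrays. Both MVH arrays were the lowest, the IgG arrays were far apart, and the difference of -1.01 ± 0.45 from IgG did not pass (adjusted p = 0.198). Ndufa12 was bright, at 16316 and 15598 on the MVH arrays, against 18847 and 15196 on the IgG arrays and 16994 and 27057 on the total RNA arrays. It differed by -0.09 from IgG and by -0.43 from total RNA, with both MVH arrays below both total RNA arrays and neither difference past the threshold. Ndufa4l2, a relative of Ndufa4 known to be induced by low oxygen, differed from IgG by 0.54 (adjusted p = 0.322), opposite in sign to the -1.90 of Ndufa4. The second probe of Ndufs5 gave -0.43 where the first gave -0.51, neither past the threshold.

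In complex II, which oxidises succinate, the values of the membrane anchors ran in opposite directions. Sdhd had 468 and 603 on the MVH arrays, against 364 and 249 on the IgG arrays and 369 and 501 on the total RNA arrays. Its MVH arrays lay above both IgG arrays but overlapped those of total RNA (log2 0.82 ± 0.32 against IgG, adjusted p = 0.148). The catalytic flavoprotein gene Sdha differed from IgG by -0.14 and the iron-sulfur subunit gene Sdhb by -0.34, and neither passed.

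Complex III carries electrons from ubiquinol to cytochrome c. All 7 of its subunits tested were negative against IgG, with a median of -0.43, and 0 passed. Uqcrc2, a core protein, had 2267 and 2701 on the MVH arrays, against 6218 and 3778 on the IgG arrays and 3719 and 3160 on the total RNA arrays, the lowest in both MVH arrays (log2 -0.97 ± 0.32 against IgG, adjusted p = 0.0977). Its partner Uqcrc1 had 4496 and 4074 on the MVH arrays, against 7471 and 3824 on the IgG arrays and 2792 and 3041 on the total RNA arrays. Both Uqcrc1 MVH arrays stood above total RNA, a difference of 0.55 that did not pass (adjusted p = 0.74). Uqcrb, of the quinone-binding region, differed by -0.68 from IgG, Uqcrfs1, the Rieske iron-sulfur protein gene, by -0.43 and the hinge protein gene Uqcrh by -0.11.

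Complex IV, cytochrome c oxidase, hands electrons to oxygen, and several of its small subunits exist in a widespread and a tissue-bound form. Of its 17 genes, 13 were negative and 4 positive against IgG, with a median of -0.51. Both MVH arrays were below all 4 other arrays in 9 (52.9%), against 11.5% of all probes. The testis forms had negative values, as did the widespread ones. Cox8c, the testis form of subunit VIII, had 13081 and 14129 on the MVH arrays, against 30117 and 21298 on the IgG arrays and 17586 and 21398 on the total RNA arrays. Its MVH arrays were the lowest of the 6, with a difference from IgG of -0.90 that did not pass (adjusted p = 0.0942), beside the -1.36 of Cox8a.

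Cox6b2, the testis form of subunit VIb, had 1866 and 1935 on the MVH arrays, against 3315 and 3899 on the IgG arrays and 3078 and 3988 on the total RNA arrays. Its widespread counterpart Cox6b1 had 786 and 696 on the MVH arrays, against 1370 and 806 on the IgG arrays and 1316 and 1716 on the total RNA arrays. Both were lowest in the MVH arrays, by -0.92 and -0.51 against IgG and by -0.88 and -1.02 against total RNA, with none of the 4 differences past the threshold. Cox7b2, the testis form of subunit VIIb, had 4884 and 4768 on the MVH arrays, against 11039 and 6760 on the IgG arrays and 9790 and 9581 on the total RNA arrays, and its counterpart Cox7b differed from IgG by -0.58 where Cox7b2 differed by -0.84.

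Muscle and lung forms were dim and lay near 0 or above it. Cox6a2, the heart and muscle form of subunit VIa, was near the floor at 7.2 and 7.3 on the MVH arrays, 4.4 and 7.21 on the IgG arrays and 6.1 and 9 on the total RNA arrays. Cox6a1, the form of most other tissues, had 7748 and 7013 on the MVH arrays, against 17176 and 13883 on the IgG arrays and 9454 and 14059 on the total RNA arrays (log2 -1.07 ± 0.30 against IgG, adjusted p = 0.0644). Cox8b, a heart and muscle form, differed from IgG by -0.05, and Cox4i2, the lung form of subunit IV, by 0.17, where Cox4i1 differed by -0.47. Cox7a2 differed by -0.30 and its relative Cox7a2l, which joins complexes III and IV, by 0.61, with none of these past the threshold.

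The genes of this pathway are known for promoters that bind NRF1 and ETS factors, so the RefSeq promoter windows (GRCm38.p6, 250 bases before to 50 after the start) were searched on both strands. Windows were found for 65 of the 80 subunits. The NRF1 core GCATGCGC stood in 10 of the 65 (15.4%), against 3.05% of all 27025 genes with a window and 3.93% of protein-coding ones. The ETS motif CCGGAAGT stood in 5 (7.69%), against 4.31% and 5.69%, and an exact YY1 motif in 5 (7.69%), against 0.995% and 1.41%. The subunit windows also held more CG pairs, with a median of 19, against 7 for all genes and 13 for protein-coding ones. These shares were not tested, nor was the part of CG content in them. The 19 subunits with at least 1 of the 3 motifs had a median of -0.45 against IgG and -0.49 against total RNA, beside -0.28 and -0.43 for the 46 without. The difference between these groups was not tested. Subunits with no window are in neither group, among them Sdhc and Atp5a1, which fell against IgG. Of the complex IV genes above, the window of Cox8a, which fell, is shown for its ETS motifs, that of Cox6a1 for its NRF1 motif (overlapping copies of the core on both strands), and that of the testis form Cox7b2, in which none of the 3 was found. Capitals mark the motifs, and each window reads 5′ to 3′ on the strand of its gene.
Cox8a, chr19:7217567-7217866, minus strand: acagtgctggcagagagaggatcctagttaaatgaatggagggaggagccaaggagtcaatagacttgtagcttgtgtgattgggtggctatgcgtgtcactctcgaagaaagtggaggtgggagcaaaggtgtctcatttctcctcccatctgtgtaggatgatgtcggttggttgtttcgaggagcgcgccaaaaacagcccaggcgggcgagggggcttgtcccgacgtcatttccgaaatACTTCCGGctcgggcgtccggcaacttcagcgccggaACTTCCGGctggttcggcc
Cox6a1, chr5:115348909-115349208, minus strand: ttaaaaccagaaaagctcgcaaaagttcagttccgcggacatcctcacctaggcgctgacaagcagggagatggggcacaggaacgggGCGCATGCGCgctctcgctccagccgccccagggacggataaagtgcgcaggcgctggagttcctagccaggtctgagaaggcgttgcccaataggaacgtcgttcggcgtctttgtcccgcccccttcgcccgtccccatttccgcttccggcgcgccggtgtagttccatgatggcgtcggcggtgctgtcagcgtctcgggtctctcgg
Cox7b2, chr5:71548156-71548455, minus strand: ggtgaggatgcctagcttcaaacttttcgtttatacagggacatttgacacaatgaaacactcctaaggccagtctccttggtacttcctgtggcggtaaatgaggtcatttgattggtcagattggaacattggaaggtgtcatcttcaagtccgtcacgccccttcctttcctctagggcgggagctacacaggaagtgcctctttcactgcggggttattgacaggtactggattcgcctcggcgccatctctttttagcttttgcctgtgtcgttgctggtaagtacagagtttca

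Complex V makes ATP in its F1 head, turned by a rotor in the membrane. Of its 16 genes, 13 were negative and 3 positive against IgG, with a median of -0.27, and -0.24 over the 5 F1 subunits, which include Atp5e of the rotor stalk. The catalytic beta subunit gene Atp5b was nearly level, at 6481 and 6747 on the MVH arrays, 7426 and 5387 on the IgG arrays and 5604 and 5205 on the total RNA arrays. It differed from IgG by 0.06, beside the -1.20 of its partner Atp5a1. The 3 genes for the rotor ring protein differed among themselves: Atp5g2 by -0.99 ± 0.29 from IgG (adjusted p = 0.0706), Atp5g3 by -0.88 (adjusted p = 0.092) and the dimmer Atp5g1 by 0.17.

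Atp5e, the epsilon subunit of the rotor stalk, had the lowest value of the 79 against total RNA. It had 4210 and 4295 in the MVH precipitates and 5826 and 4328 in the IgG precipitates, against 10499 and 11688 in total RNA. All 4 precipitate arrays lay below both total RNA arrays. The difference was -1.38 ± 0.28 for MVH (adjusted p = 0.184) and -1.14 for IgG (adjusted p = 0.0919), each against the same total RNA arrays, and neither passed. Both passed without the dimmest 25% of probes and with a variance trend. Atp5k, a membrane subunit, had 1421 and 1535 on the MVH arrays, against 3363 and 2644 on the IgG arrays and 2798 and 3191 on the total RNA arrays, the lowest in both MVH arrays (2.02-fold below either other group, adjusted p = 0.0568 against IgG and 0.301 against total RNA). Atp5pb, of the outer stalk, differed from IgG by 0.41 with MVH arrays of 1953 and 3559, and did not pass (adjusted p = 0.581).

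**Figure D2:**
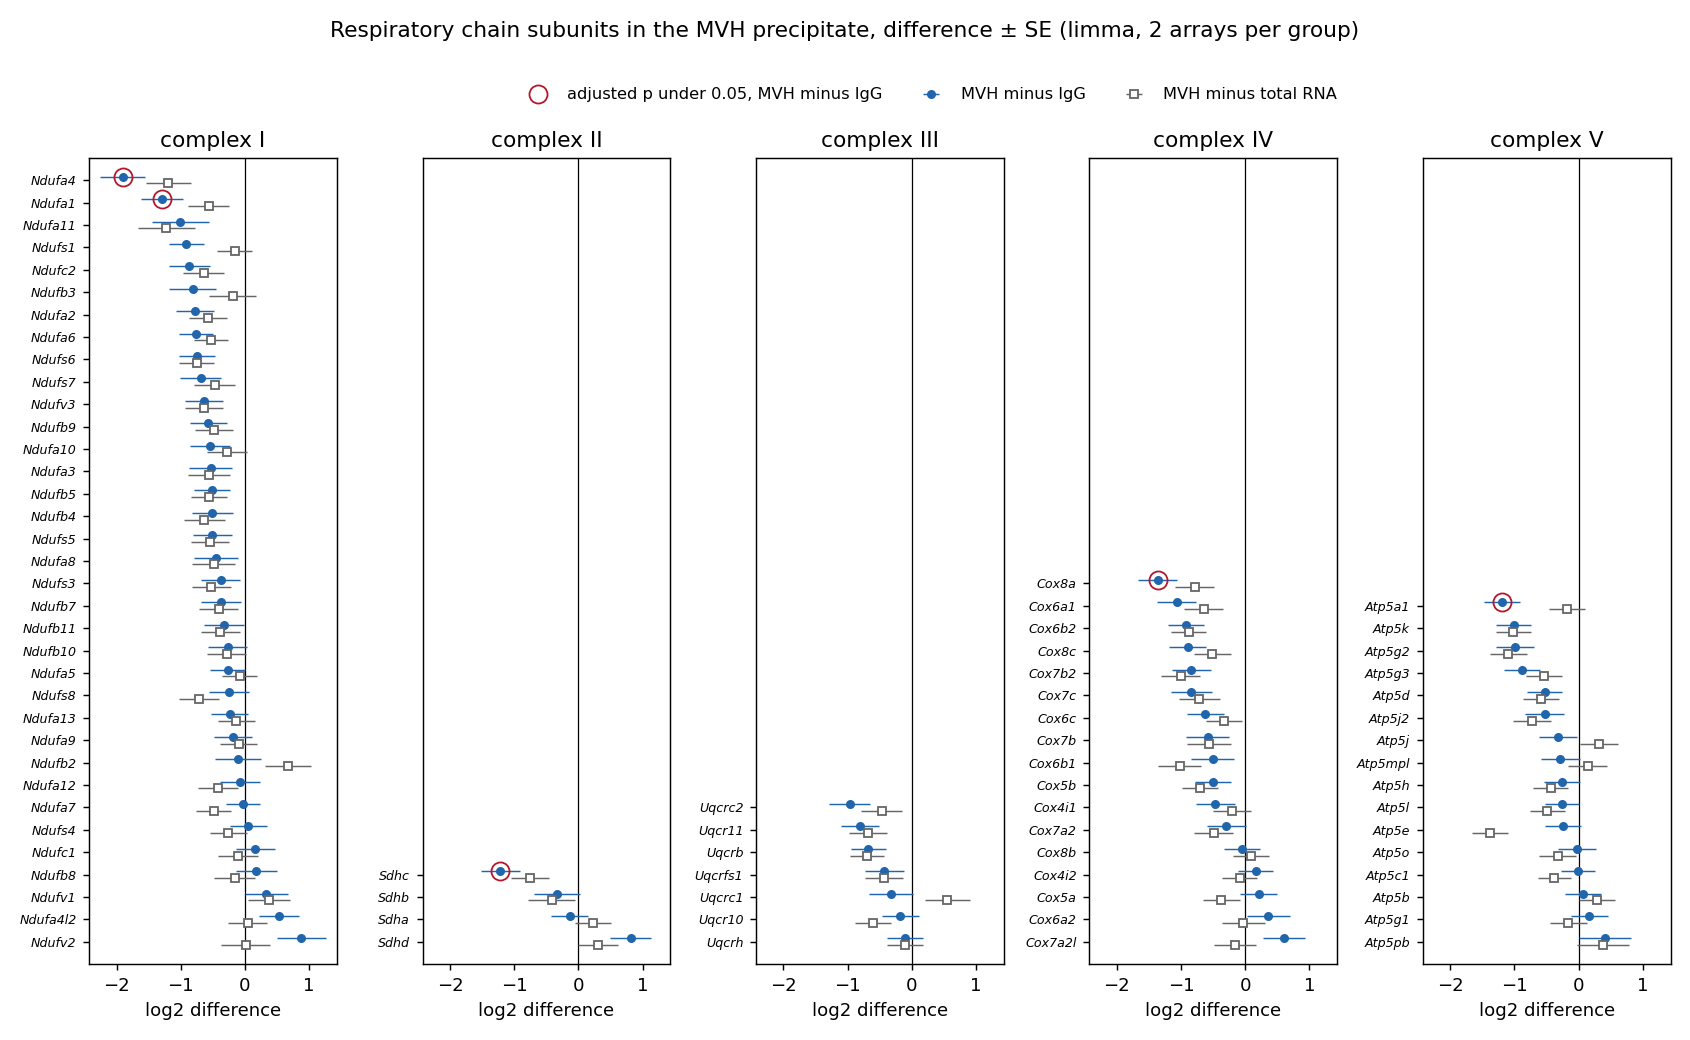
Log2 difference of each subunit between the MVH precipitate and the IgG precipitate (filled circles) and between the MVH precipitate and total RNA (open squares), with bars of 1 SE (limma, 2 arrays per group), 1 panel per complex. Rings mark the 5 subunits past the threshold against IgG, and most points of all 5 complexes lie left of 0.

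The second question was whether these mRNAs differed between the MVH precipitate and total RNA, that is, relative to their abundance. The median of the 79 subunits was -0.47 (1.39-fold lower), against -0.02 for all 21793 probes tested, with 67 subunits negative and 12 positive. None passed alone: limma called 0 lower and 0 higher, where 0.00918% of all probes were lower and 0.00459% higher (at an unadjusted p under 0.05, 16 subunits or 20.3% were lower and 0 higher, against 4.41% lower and 4.53% higher of all probes). With a variance trend or without the dimmest 25% of probes, 1 was called lower, Atp5e. Both MVH arrays lay below both total RNA arrays in 51 subunits (64.6%), against 21.6% of all probes, and above them in 5 (6.33%), against 18.7%. The medians were -0.47 for complex I, -0.09 for complex II, -0.47 for complex III, -0.51 for complex IV and -0.40 for complex V.

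Both MVH arrays lay below all 4 arrays of the IgG precipitate and total RNA in 36 of 79 subunits (45.6%), where 11.5% of all probes did so, and above all 4 in 0, where 11.4% did. The 36 were 14 of complex I, 1 of complex II, 4 of complex III, 9 of complex IV and 8 of complex V. Since the same MVH arrays enter both comparisons, these are not independent.

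The third question was where IgG itself stood. The median of the 79 subunits was -0.01, against -0.10 for all 21413 probes tested, with 36 positive and 43 negative. None passed, with 0 lower (0% of all probes) and 0 higher (0.00934% of all probes), and at an unadjusted p under 0.05 there were 3 lower and 3 higher (3.8% each), against 8.86% lower and 9.35% higher of all probes. Alternatives called at most 1 lower, Atp5e, and 1 higher, Atp5a1. Both IgG arrays lay below both total RNA arrays in 17 subunits (21.5%), against 29.6% of all probes, and above in 15 (19.0%), against 20%.

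**Figure D3:**
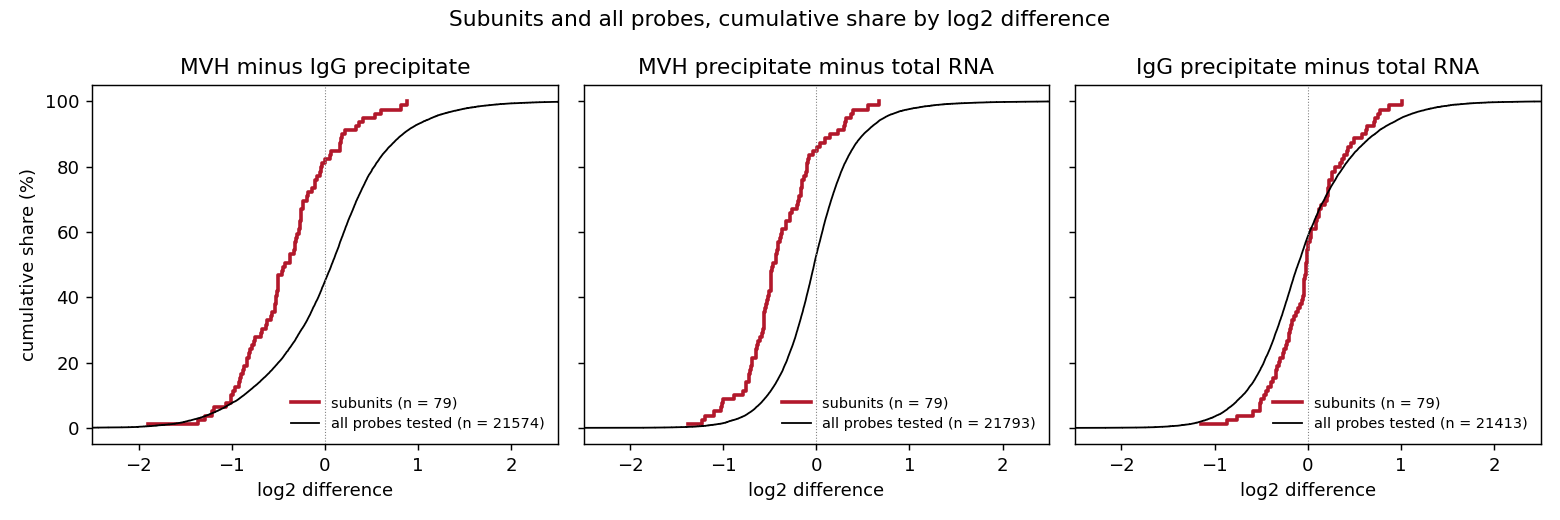
Cumulative share (%) of the 79 subunits (thick line) and of all probes tested (thin line) by log2 difference, for the MVH minus IgG precipitate, the MVH precipitate minus total RNA and the IgG precipitate minus total RNA. The subunits lie left of all probes in both comparisons of the MVH precipitate, with medians of -0.43 and -0.47, and near them in the third, with a median of -0.01.

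The median subunit stood 6.02 and 6.09 log2 units above the array median in the MVH precipitates, against 6.58 and 6.35 in the IgG precipitates and 6.40 and 6.66 in total RNA. Both MVH arrays were the lowest of the 6. Array by array, the median MVH minus IgG difference of the 79 was -0.70 (MVH 1 and IgG 1), -0.34 (MVH 1 and IgG 2), -0.49 (MVH 2 and IgG 1) and -0.14 (MVH 2 and IgG 2), while IgG 1 minus IgG 2 was itself 0.42. Against total RNA the 4 medians ran from -0.69 to -0.22, and total RNA 1 minus 2 was -0.28. All 8 were negative, but they share arrays and are not independent. The medians of all probes for the same pairs ran from -0.04 to 0.14. The median against IgG was -0.23 without IgG 1. It was -0.16 with no centring, which leaves IgG 2 as deposited, and that of all probes then became 0.34, and the median against total RNA was -0.30 without total RNA 2.

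**Figure D4:**
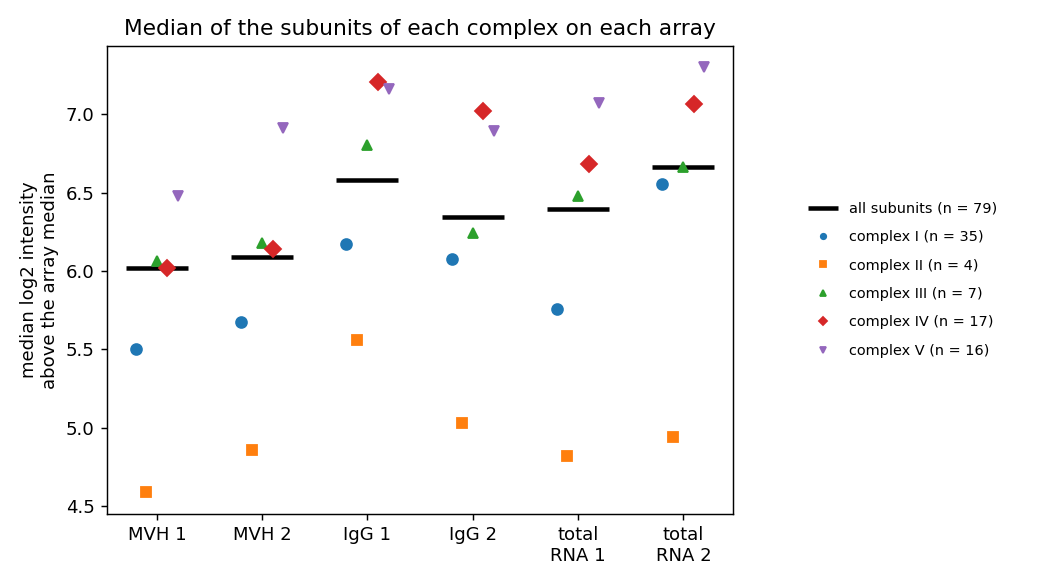
Median log2 intensity of the subunits above the array median, on each of the 6 arrays, for all 79 subunits (bars) and for each complex (symbols, with the number of genes in the legend). The bars lie at 6.02 and 6.09 for the MVH precipitates, below those of the other 4 arrays (6.35 to 6.66).

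Among all probes, the brightest 10% of total RNA had lower medians against total RNA, but hardly a lower one for MVH against IgG. Brightness was read from the same 2 total RNA arrays that enter the differences against total RNA. Those differences are therefore not independent of the brightness ranges, and a bright range can lean low for that alone. Among all probes in the brightest 10% of total RNA, the median was 0.04 for MVH minus IgG and -0.14 for MVH minus total RNA, and 37.3% had both MVH arrays below both total RNA arrays. The 54 subunits in the same range had medians of -0.46 and -0.49, and 70.4% had both MVH arrays below. The 25 dimmer subunits had medians of -0.25 and -0.19. All probes at percentiles 0 to 25, 25 to 50, 50 to 75 and 75 to 90 had medians between 0.0008 and 0.12 against IgG. Against total RNA their medians lay between -0.05 and 0.006. For IgG minus total RNA, all probes in the brightest 10% had a median of -0.20. Both IgG arrays lay below both total RNA arrays in 41.9% of them. The 54 bright subunits had a median of -0.01 there, with 16.7% below, and the 25 dimmer ones -0.03, with 32% below. The share below was 20.3% to 32.2% of all probes in the dimmer ranges.

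Some markers of testis cell types also differed between the MVH and IgG precipitates. Leydig cells make steroids, in part in mitochondria. Of 8 Leydig markers 6 were on the array and all 6 were listed in total RNA, and they summed to 512 and 494 on the MVH arrays, against 3004 and 1888 on the IgG arrays and 662 and 1134 on the total RNA arrays. Of the 6, 4 fell against IgG, with a median of -1.93, where 4.15% of all probes fell. The 5 peritubular markers summed to 541 and 345 on the MVH arrays, against 3160 and 1467 on the IgG arrays and 410 and 503 on the total RNA arrays, and 2 fell (Acta2 and Myh11). Acta2 made up most of each sum, with 502 and 295 on the MVH arrays and 3037 and 1388 on the IgG arrays. Des, which was dim, differed from IgG by 0.11, while the other peritubular markers were negative. The medians of IgG minus total RNA were 1.11 and 1.26 for the Leydig and peritubular lists, with 0 genes past the threshold, beside -0.01 for the subunits. The part of these markers in the lower subunit values was not tested. RNA in a precipitate is what came down from a lysate, so its values do not measure the number of cells of a type. Medians against IgG were 0.07 for 8 Sertoli markers, 0.34 for 6 macrophage and blood markers, 0.01 for 5 spermatogonial, -0.19 for 8 spermatocyte and 0.54 for 11 spermatid markers. The spermatid markers Prm2 and Tnp1 shared the highest value of each total RNA array (74564 and 77410). Prm2 also held the highest value of each MVH array (67580 and 83665). Whether a ceiling limits such differences was not tested. Among the spermatocyte markers 1 rose (Sycp3, 1.79) and 2 fell (Tex101, -1.70, and Dmc1, -1.21). Among the spermatid markers 1 rose (Pgk2, 2.13), while 0 of the other 3 lists passed. Over all probes, 3.82% rose and 4.15% fell.

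Other genes of the pathway were set beside the subunits, and no test compared the lists. Against IgG, 4.15% of all probes fell and 3.82% rose. Of 36 assembly factors, which help build the complexes, 2 fell against IgG and 0 rose, with medians of -0.14 against IgG and -0.15 against total RNA. The 2 were Cox14 (-1.38, adjusted p = 0.0390), which acts in complex IV assembly, and the complex II factor Sdhaf4 (-1.37, adjusted p = 0.0384). Of 10 electron carriers and subunits outside the name rule, 1 fell, the electron transfer flavoprotein gene Etfb (-1.26), with medians of -0.37 against IgG and -0.13 against total RNA. The testis cytochrome c gene Cyct had 1912 and 2130 on the MVH arrays, against 2841 and 2026 on the IgG arrays and 2063 and 2196 on the total RNA arrays, and differed from IgG by -0.25, while the somatic Cycs differed by -0.69, with neither past the threshold. Cyc1, of complex III, had 237 and 231 on the MVH arrays, against 560 and 391 on the IgG arrays and 245 and 316 on the total RNA arrays, and did not pass (adjusted p = 0.0736).

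The tricarboxylic acid cycle feeds the chain. Of 13 of its enzymes 2 rose against IgG and 0 fell, with a median of -0.19, where 3.82% of all probes rose and 4.15% fell. Idh3b, a subunit of isocitrate dehydrogenase, had 416 and 817 on the MVH arrays, against 159 and 107 on the IgG arrays and 251 and 307 on the total RNA arrays (log2 2.16, adjusted p = 0.0201). Dld, which serves several mitochondrial dehydrogenases, had 120 and 350 on the MVH arrays, against 61.2 and 27.5 on the IgG arrays and 77.2 and 87.1 on the total RNA arrays (log2 2.32, adjusted p = 0.0358). Of 12 regulators of mitochondrial gene expression, Nrf1 and Gabpa among them, 0 passed, with a median of 0.15. Against total RNA, 0 genes of these 4 lists passed.

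The 3 genes matched by letters alone had values of both signs. Dmac2l differed from IgG by 0.80, with 1413 and 2043 on the MVH arrays, against 783 and 1216 on the IgG arrays and 1090 and 1205 on the total RNA arrays. Dmac2 differed by -0.90 and Emc8, of the membrane protein insertion complex of the endoplasmic reticulum, by -0.89, and none of the 3 passed. With them, 82 names were tested and the median was -0.44 against IgG and -0.45 against total RNA. The RefSeq annotation lists 14 pseudogenes named after 9 of the subunits (Atp5c1, Atp5k, Atp5l, Atp5pb, Cox5b, Cox7c, Ndufa12, Ndufs5 and Uqcrh), and whether their transcripts add to the probes' signal was not tested.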

How the data were processed

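The deposited values are the linear intensity of each probe on each array, as the authors gave it. Per the labels, aRNA was made with an amino allyl kit and carried Cy5, 1 sample per array. How the slides were scanned, corrected and scaled, and why a cell is blank, is not given here. Between 508 and 1383 of 23473 probes were blank per array, and the number of arrays limits the precision.

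Intensities were converted to log2 and centred on each array's median. limma 3.58.1 (R 4.3.3; lmFit and eBayes over all 6 arrays) tested each contrast at probes listed on its 4 arrays, with Benjamini-Hochberg adjustment over all of them and a threshold of 0.05. Probe symbols were updated through RefSeq GRCm38.p6 (12622 current, 3947 updated, 62 not matched, and 6842 probes with no symbol). The steps were tested on simulated data. Figures were drawn with matplotlib 3.10.9.

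Named were all subunits past the threshold, the most extreme and the brightest of each complex, the paralogs of complex IV and pathway genes past the threshold. Others, such as Ndufs1, Ndufa11, Ndufv1, Ndufa4l2, Uqcrc1, Atp5b, Atp5k and the Atp5g genes, were chosen after their values were seen. The members and lists were chosen with earlier results of these data known. Protocol lines about liver tumour samples were disregarded.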

Additional observations from a re-analysis of the deposited data

How the results depend on the processing

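Against IgG, the count of subunits called lower (5 as reported) was 0 with no centring and with only the 4 arrays compared, 8 with quantile normalization and with the mean of a gene's probes, 10 with an offset of 1.7, 13 without the dimmest 25% of probes and with a variance trend, and 0 to 4 when an array was left out. The median (-0.43) was -0.16 with no centring, where that of all probes became 0.34, and -0.61 to -0.23 when an array was left out. Against total RNA, 1 was called lower with a variance trend and also without the dimmest 25% of probes, and the median (-0.47) ran from -0.55 to -0.30 when an array was left out. For IgG against total RNA, 1 was called lower and 1 higher in those same settings, 1 lower with an offset, and the median (-0.01) was -0.28 with no centring, where that of all probes became -0.37, and -0.17 to 0.19 when an array was left out. Centring moved only IgG 2, whose deposited median was 20.8 beside 30 on the other 5 arrays, and its step of 0.26 in the IgG mean is the change in both medians with no centring. The cause of the other changes was not tested, beyond the smaller number of arrays or probes that a setting itself brings. With the array number as a replicate block, 5 subunits were again called lower against IgG, 0 in the other contrasts, and the medians were -0.43, -0.47 and -0.01. Deviations of same-numbered arrays correlated at 0.157, 0.156 and 0.101, but with 2 numbers and no word on pairing in the labels, the number was not taken to pair them. Over the 14 alternatives and all subunits, calls against IgG were lost 37 times and gained 28 times. The median SE over all probes was 0.31 on the log2 scale.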
